A study of Homo sapiens with 20 samples.

Results

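The genes described are 9 of the 26038 gene symbols in the table: NKD1, AXIN2, RNF43, ZNRF3, LGR4, LGR5, TCF7, LEF1 and DKK1. All are feedback regulators or target genes of the Wnt pathway, and all 9 were found by symbol. They were chosen with results in view, since NKD1 is among the genes with the largest increase in NFS1 against NC. RNA-seq covered 20 libraries, 5 in each of 4 groups, of the liver cancer line MHCC-97H. The study modelled the sublethal heat that an incomplete microwave ablation leaves in a tumour. In its first experiment wild-type cells were held for 15 minutes in a bath at 47 °C (R-47) or at 37 °C (R-37). In the second, cells labelled NFS1 knockdown, made with shRNA (NFS1), and cells labelled wild type (NC) were all held for 15 minutes at 47 °C. Cells of every group then spent 24 hours in an incubator before RNA was taken, so NC carries the heat treatment too. NFS1 is the cysteine desulfurase that supplies sulfur for iron-sulfur clusters. The labels used here give neither the shRNA sequence nor the construct carried by NC, and separate cultures are stated for no group, so each p-value is set against a spread among libraries that may be technical only.

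Wnt ligands bind Frizzled receptors and LRP5 or LRP6, and this stops a cytoplasmic destruction complex from marking β-catenin for degradation. β-catenin then binds TCF and LEF proteins on DNA and raises a set of target genes. Several of those targets act back on the pathway. DKK1 is secreted and blocks LRP5 and LRP6, NKD1 binds Dishevelled inside the cell, AXIN2 is a scaffold of the destruction complex, and RNF43 and ZNRF3 are membrane ubiquitin ligases that remove Frizzled receptors from the surface. LGR4 and LGR5 are receptors for R-spondins, which clear RNF43 and ZNRF3 from the surface. In the liver the pathway is known for patterning metabolic enzymes around the central vein, and activating mutations of it are common in hepatocellular carcinoma.

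On GRCh38.p14 the 9 genes are all protein coding in RefSeq. DKK1 lies at chr10:52314281-52317657, NKD1 at chr16:50548396-50649249, AXIN2 at chr17:65528563-65561648, RNF43 at chr17:58352500-58417534 and ZNRF3 at chr22:28883572-29057488. LGR4 lies at chr11:27365961-27472790, LGR5 at chr12:71439129-71586310, TCF7 at chr5:134108218-134148210 and LEF1 at chr4:108047548-108168932. RefSeq promoter windows, which run from 250 bases before to 50 bases after an annotated start, were at hand for 5 of the 9 genes, in 7 windows. DKK1 and LEF1, the genes with the highest and the lowest level of the 9, are shown because TCF and LEF proteins bind a short motif. Capitals mark TCAAAG on either strand, which reads CTTTGA on the reverse strand. The DKK1 window lies at chr10:52314031-52314330 on the plus strand and the LEF1 window at chr4:108166252-108166551 on the minus strand. The DKK1 start is the outer start of the gene, while the LEF1 start lies 2631 bases inside the annotated gene.
DKK1: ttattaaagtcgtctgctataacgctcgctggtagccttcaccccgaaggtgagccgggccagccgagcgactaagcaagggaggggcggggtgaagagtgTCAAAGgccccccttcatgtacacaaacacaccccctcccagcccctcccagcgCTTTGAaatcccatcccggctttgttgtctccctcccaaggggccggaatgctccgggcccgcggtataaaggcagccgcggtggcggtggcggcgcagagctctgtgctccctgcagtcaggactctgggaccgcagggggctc
LEF1: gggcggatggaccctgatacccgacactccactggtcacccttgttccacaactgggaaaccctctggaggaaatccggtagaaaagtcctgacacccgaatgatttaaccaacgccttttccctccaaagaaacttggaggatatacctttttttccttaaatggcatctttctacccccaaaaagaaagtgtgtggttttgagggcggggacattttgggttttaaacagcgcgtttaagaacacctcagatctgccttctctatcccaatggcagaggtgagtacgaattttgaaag
The DKK1 window held 2 matches, which begin 149 bases before the start on the plus strand and 95 bases before it on the minus strand. No other of the 7 windows, which belong to DKK1, LEF1, TCF7, LGR4 and RNF43, held the motif. TCAAAG was present in 4536 of 35116 RefSeq promoter windows (12.9%), so a match is common by itself. The longer form ATCAAAG was present in 2.62% of them and in none of the 7 windows, that of DKK1 included. GC content was 63.7% in the DKK1 window and 47.0% in the LEF1 window. AXIN2, NKD1, ZNRF3 and LGR5 are named without a promoter.

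Libraries held, to 6 digits, 35431100 to 39094000 in R-47, 32219900 to 39689900 in R-37, 35426500 to 36253400 in NFS1 and 35732500 to 36744100 counts in NC. NFS1 itself averaged 24.3 ± 0.86 FPKM in NFS1 libraries and 26.0 ± 0.83 FPKM in NC libraries (SD, n = 5 each). All 5 NFS1 libraries lay below all NC libraries, but the difference of -0.11 (log2, SE 0.05) did not pass the test (edgeR adjusted p = 0.11). It passed with DESeq2 (adjusted p = 0.033) and with all 20 libraries in one edgeR fit (adjusted p = 0.049; range over all alternatives 0.033 to 0.32), so the RNA shows at most a small difference under the knockdown label. The experiments differ widely under the same line label: the mesenchymal filament gene VIM averaged 108 ± 3.7 FPKM in NC and 4.51 ± 0.36 FPKM in R-47, and the bile duct keratin gene KRT19 averaged 0.614 ± 0.10 FPKM in NC and 287 ± 11 FPKM in R-47 (SD, n = 5 each). The epithelial cadherin gene CDH1 averaged 0.877 ± 0.14 FPKM in NC and 3.58 ± 0.15 FPKM in R-47. Of 15080 genes tested between NC and R-47, 79.7% passed. Of 13 hepatocyte markers, the defining ALB averaged 2.11, 5.52, 0.304 and 0.400 FPKM in R-47, R-37, NFS1 and NC, and GPC3 had at most 3 counts in any library. The list had calls in both directions in R-47 against R-37 and in NC against R-47, but only lower calls in NFS1 against NC. Of 11 tested, 1 was called higher and 4 lower in R-47 against R-37 (all genes tested: 11.9% higher and 13.2% lower). In NFS1 against NC none was called higher and 6 lower (all genes tested: 15.7% higher and 12.5% lower). In NC against R-47, 4 were called higher and 5 lower (all genes tested: 40.1% higher and 39.6% lower). In NC against R-47 ALB changed by -2.57 (log2), while APOB, an apolipoprotein gene, changed by 1.00 and HNF4A, a hepatocyte transcription factor gene, by 0.81. The summed level of the list, mostly KRT8 and KRT18, was 3102 to 3421, 2924 to 3522, 2022 to 2431 and 2591 to 2791 FPKM in R-47, R-37, NFS1 and NC. For the 5 bile duct markers found it was 451 to 482, 432 to 494, 148 to 174 and 139 to 173 FPKM in the same order. Sums over 6 fibroblast markers were 5.97 to 7.12, 5.82 to 8.80, 12.6 to 22.0 and 8.10 to 10.04 FPKM in that order, and those over 5 endothelial markers 9.56 to 10.8, 8.69 to 10.4, 9.44 to 10.3 and 9.79 to 12.0 FPKM. Only 1 fibroblast marker reached a mean of 1 FPKM in each group. Fibroblast markers called higher were 1 of 3 tested in R-47 against R-37 (11.9% of all genes tested) and 4 of 4 in NC against R-47 (40.1% of all genes tested). In NFS1 against NC it was 1 of 4 (15.7% of all genes tested), LUM at 0.78 (log2, SE 0.15). None was called lower. Sums over 6 leukocyte markers stayed under 3 FPKM, with CD3E at no more than 3 counts in each library. The part of these differences in the results below was not tested, and in bulk RNA fewer cells of a type and less RNA per cell cannot be told apart.

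DKK1, the secreted antagonist, had the highest level of the 9 genes, and its level separated the experiments. FPKM, the count scaled by gene length and by the library total, is used for levels throughout. DKK1 had 139, 131, 133, 128 and 132 FPKM in R-47 libraries 1 to 5, against 127, 130, 130, 133 and 140 FPKM in R-37 libraries. It had 50.05, 46.1, 47.7, 55.2 and 51.8 FPKM in NFS1 libraries, against 51.0, 51.6, 40.9, 41.8 and 41.2 FPKM in NC libraries. Within each experiment the groups overlapped, while every library of the second experiment lay below every library of the first. DKK1 averaged 133 ± 4.2 FPKM in R-47 and 132 ± 5.0 FPKM in R-37 (SD, n = 5 each).

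NKD1, the Dishevelled-binding inhibitor, had low levels with a wide spread between groups. It had 0.147, 0.111, 0.163, 0.135 and 0.158 FPKM in R-47, against 0.160, 0.168, 0.162, 0.143 and 0.150 FPKM in R-37. It had 0.549, 0.554, 0.533, 0.530 and 0.571 FPKM in NFS1, against 0.0706, 0.0730, 0.0652, 0.0678 and 0.0873 FPKM in NC. The NFS1 libraries stood above all others and the NC libraries below all others, with R-47 and R-37 overlapping between them. These levels rest on 352 to 384 counts per library in NFS1, 44 to 59 in NC, 78 to 119 in R-47 and 86 to 124 in R-37. AXIN2, the scaffold, had 22.3, 22.8, 22.4, 23.2 and 22.4 FPKM in R-47, against 19.1, 18.9, 18.7, 19.2 and 18.5 FPKM in R-37. It had 15.7, 15.0, 15.3, 15.0 and 15.7 FPKM in NFS1, against 14.3, 13.4, 15.2, 14.9 and 14.9 FPKM in NC. R-47 lay wholly above R-37 and R-37 wholly above the second experiment, in which NFS1 and NC overlapped.

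The membrane ubiquitin ligase genes had levels of a few FPKM in every library. RNF43 had 6.26, 6.62, 7.41, 6.14 and 6.52 FPKM in R-47, against 6.74, 6.41, 6.35, 6.01 and 6.43 FPKM in R-37. It had 7.61, 7.35, 7.41, 7.84 and 8.03 FPKM in NFS1, against 6.45, 5.74, 7.17, 6.04 and 6.38 FPKM in NC. By mean FPKM, NFS1 came before R-47, R-37 and NC, each neighbouring pair overlapped, and NFS1 lay above NC in every library. In CPM, which are also scaled for composition by TMM, NFS1 was not first: R-47 averaged 52.3 CPM and R-37 53.6 CPM, NFS1 52.0 CPM and NC 44.3 CPM, and NFS1 and NC overlapped. ZNRF3 had 4.53, 4.31, 4.46, 4.05 and 4.17 FPKM in R-47, against 3.48, 3.87, 3.76, 4.16 and 3.58 FPKM in R-37. It had 5.70, 4.99, 5.40, 5.00 and 5.86 FPKM in NFS1, against 4.60, 4.51, 4.49, 4.27 and 4.65 FPKM in NC. In FPKM the NFS1 libraries lay above the rest. In TMM-scaled CPM they lay above NC alone, with 31.0 to 37.3 in NFS1, 29.6 to 33.5 in R-47, 27.4 to 32.4 in R-37 and 27.3 to 30.1 in NC.

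The R-spondin receptors differed from each other. LGR4 had 19.4, 17.5, 17.0, 19.6 and 18.4 FPKM in R-47, against 17.8, 21.3, 18.3, 18.4 and 22.6 FPKM in R-37. It had 11.0, 12.1, 11.3, 16.2 and 11.5 FPKM in NFS1, against 12.3, 11.4, 11.1, 11.3 and 11.4 FPKM in NC. The second experiment lay below the first in every library, and NFS1 library 4 stood above the other NFS1 libraries. LGR5, a stem cell marker in the intestine and other tissues, was almost undetected in the first experiment. It had 1, 6, 0, 1 and 1 counts in R-47, against 0, 2, 0, 0 and 0 counts in R-37. In the second experiment LGR5 had 0.987, 0.834, 1.02, 1.12 and 0.919 FPKM in NFS1, against 0.946, 0.974, 0.952, 0.756 and 0.837 FPKM in NC. NFS1 and NC overlapped, and R-47 library 2 held 6 of the 9 R-47 counts.

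TCF7 and LEF1 encode DNA-binding partners of β-catenin. TCF7 had 1.82, 2.11, 2.04, 1.97 and 1.94 FPKM in R-47, against 1.87, 2.03, 1.65, 1.90 and 1.74 FPKM in R-37. It had 2.32, 2.24, 2.32, 2.40 and 2.43 FPKM in NFS1, against 1.91, 1.53, 1.73, 1.74 and 1.69 FPKM in NC. In FPKM the NFS1 libraries lay above all others, and the other groups overlapped. In TMM-scaled CPM the NFS1 libraries, at 29.1 to 32.2, overlapped R-47, at 28.1 to 32.6, and R-37, at 26.9 to 32.9, while NC lay below all of them at 21.0 to 26.1. LEF1 had 1, 1, 1, 1 and 0 counts in R-47, 0, 0, 4, 1 and 1 in R-37, 2, 0, 0, 4 and 4 in NFS1 and 2, 1, 1, 1 and 3 in NC, at or near the floor of 3 counts in every library, so no difference was detectable at this depth. The strand setting of the counting is not given in the sources used here. TCF7 overlaps the annotated gene VDAC1, with 10714 to 14306 counts per library, and RNF43 overlaps TSPOAP1-AS1, with 3 to 132. ZNRF3 overlaps ZNRF3-AS1, with 1 to 31, LGR4 overlaps LGR4-AS1, with 0 to 9, and LGR5 overlaps LOC105369833, with 0 to 1. NKD1 overlaps NKD1-AS1 and LEF1 overlaps LEF1-AS1, and neither of these symbols was counted on its own. Reads of all these overlapping genes may not be fully separable.

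**Figure D1:**
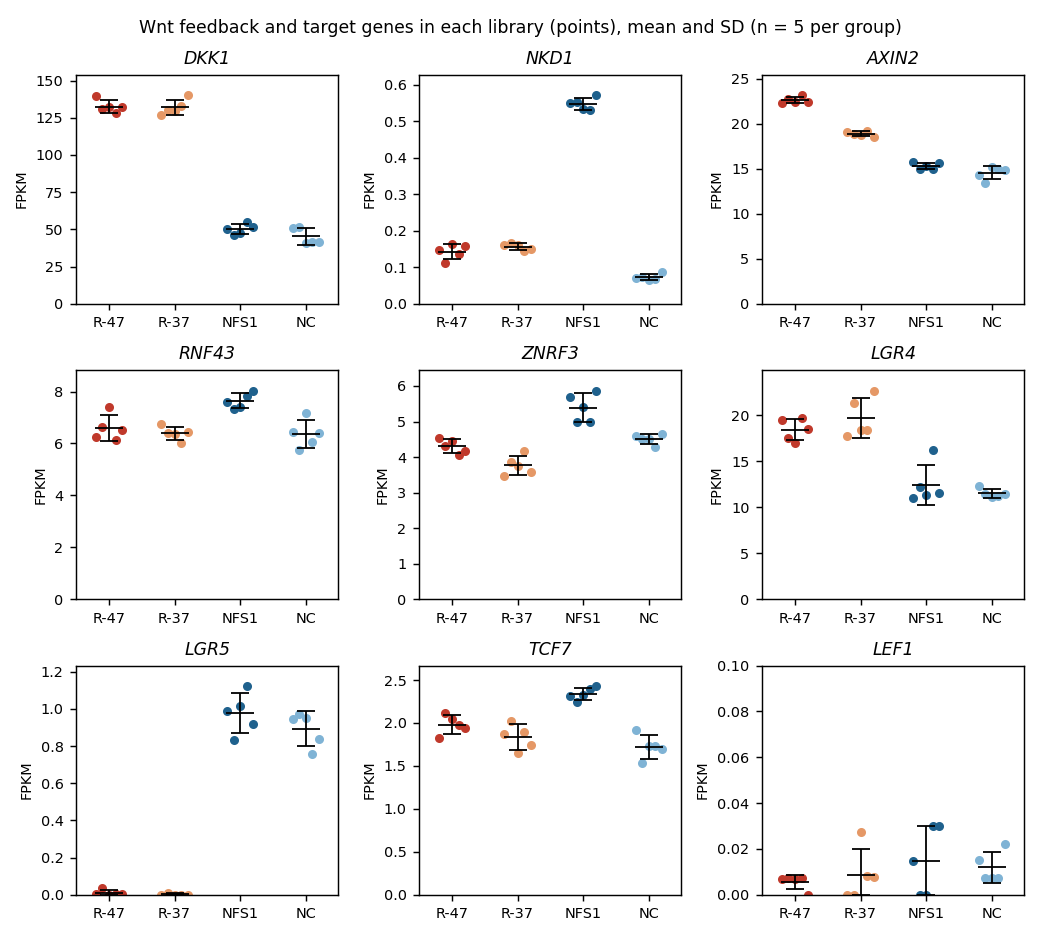
FPKM of each gene in every library (points), with the group mean and SD (n = 5 per group; LEF1 bars are cut at 0). NKD1 sits between 0.530 and 0.571 FPKM in NFS1 and between 0.0652 and 0.0873 FPKM in NC, and LGR5 is near 0 in R-47 and R-37.

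The first comparison asked what a bath at 47 °C left behind 24 hours later, and the contrast that names NKD1 does not include its libraries, although earlier results of both experiments were known when the genes were chosen. AXIN2 rose in R-47, to a mean of 22.6 ± 0.35 FPKM, against 18.9 ± 0.27 FPKM in R-37 (SD, n = 5 each). The change was 0.18 (log2, SE 0.04, 95% interval 0.10 to 0.26), or 1.14-fold, with an edgeR quasi-likelihood test and Benjamini-Hochberg adjusted p = 0.0040, and all 5 R-47 libraries lay above all R-37 libraries. The fold change is smaller than the FPKM ratio because FPKM carries library-size scaling alone, while the fit also scales for composition (TMM). AXIN2 was the 1 gene called among the 7 that passed the filter on low counts (14.3%), against 25.1% of the 14344 genes tested and 11.9% called higher. The median log2 change of the 7 was -0.03, against -0.01 for all genes tested. LGR5 and LEF1 were too low to be tested.

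LGR4 was lower in R-47 by a log2 change of -0.17 (SE 0.07, 95% interval -0.30 to -0.04), which did not pass (adjusted p = 0.074). It passed without R-37 library 1 (-0.20, adjusted p = 0.036), and its adjusted p over all alternatives ranged from 0.036 to 0.50. ZNRF3 differed by 0.12 (SE 0.06, adjusted p = 0.19). With library size alone ZNRF3 came to 0.19 (adjusted p = 0.034), and its adjusted p over all alternatives ranged from 0.034 to 0.32. NKD1 differed by -0.21 (SE 0.14, adjusted p = 0.28), with 3 of 5 R-47 libraries below all R-37 libraries in TMM-scaled CPM. In FPKM this did not hold for R-47 library 1, at 0.147, which lay above R-37 library 4, at 0.143. DKK1 differed by -0.07 (SE 0.04, adjusted p = 0.24), RNF43 by -0.03 (SE 0.06, adjusted p = 0.74) and TCF7 by 0.03 (SE 0.07, adjusted p = 0.76). A value that misses the threshold does not show that these levels were equal.

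Around the 9 genes, 112 other genes of the pathway were listed by role, with earlier results of these data known. Over all 20 libraries WNT7B, at a mean of 5.01 FPKM, was the highest of 19 Wnt ligands, 9 of which had under 10 counts in every library. LRP5 (48.3 FPKM) was the highest receptor, GSK3A (75.5 FPKM) the highest destruction complex gene and CTNNB1 (103 FPKM) the highest nuclear effector. The target LGR6, another R-spondin receptor gene, had at most 1 count in any library. Of the 112 genes, 105 were in the table and 70 were tested in R-47 against R-37: 6 rose and 14 fell (28.6%, against 25.1% of all genes tested), with a median log2 change of -0.07. Of 11 tested receptors and co-receptors, none rose and 5 fell (45.5%), with a median of -0.24. Of all genes tested, 13.2% passed as lower. LRP6, the co-receptor that DKK1 binds, fell by 0.32 on the log2 scale (SE 0.06, adjusted p = 0.000976) and averaged 10.4 ± 0.32 FPKM in R-47 and 12.3 ± 1.2 FPKM in R-37 (SD, n = 5 each). FZD5, a Frizzled receptor, changed by -0.25 (SE 0.05, adjusted p = 0.0010). Of 5 tested antagonists, 2 fell and none rose (40%, against 13.2% of all genes tested that passed as lower). DKK3, a secreted relative of DKK1, fell to 9.70 ± 0.60 FPKM in R-47, against 14.3 ± 0.39 FPKM in R-37 (log2 change -0.63, SE 0.06, adjusted p = 1.63e-06). SFRP4, a secreted Frizzled-like decoy with few counts, changed by -1.65 (SE 0.44, adjusted p = 0.012), a call lost on log2(FPKM + 1) with no filter on low values (adjusted p = 0.086; range over all alternatives 0.0033 to 0.086).

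Among 6 tested Wnt ligands, 1 rose and 1 fell (33.3%, against 25.1% of all genes tested). WNT7B rose to 7.34 ± 0.47 FPKM in R-47, against 5.39 ± 0.45 FPKM in R-37 (log2 change 0.37, SE 0.07, adjusted p = 0.0019). WNT5A, a ligand best known for signalling without β-catenin, fell to 2.26 ± 0.11 FPKM in R-47, against 2.78 ± 0.31 FPKM in R-37 (log2 change -0.37, SE 0.07, adjusted p = 0.0016). None of the 3 tested genes of ligand release and R-spondins passed. Of 15 Dishevelled and destruction complex genes, 3 rose and 1 fell (26.7%), near the 25.1% of all genes tested. DVL3, a Dishevelled, changed by 0.26 (SE 0.06, adjusted p = 0.0054), and the kinase gene GSK3A by 0.20 (SE 0.05, adjusted p = 0.015), which was lost without R-47 library 2 (0.17, adjusted p = 0.051; range over all alternatives 0.0016 to 0.051). Without that library 1 gene of the list, not 3, was called higher. GSK3B, its sister kinase, changed by -0.19 (SE 0.06, adjusted p = 0.039), and TCF7L2, the TCF with the highest level here, by -0.18 (SE 0.06, adjusted p = 0.0495). Both calls lie at the threshold, and each was lost with library size alone (adjusted p = 0.20 for GSK3B and 0.25 for TCF7L2). Over all alternatives the adjusted p ranged from 0.015 to 0.35 for GSK3B and from 0.016 to 0.37 for TCF7L2. The GSK3B call was also lost when R-37 library 2, 4 or 5 or R-47 library 2, 3, 4 or 5 was left out, and that of TCF7L2 when R-37 library 2, 4 or 5 or R-47 library 1, 2, 4 or 5 was left out. TCF7L2 was the only one of 11 tested nuclear effectors to pass (9.09%), and CTNNB1, which encodes β-catenin, differed by less than 0.01 (adjusted p = 0.96).

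Target genes outside the feedback set held calls in both directions. Of 12 other targets tested, 2 fell and none passed as higher (16.7%, against 25.1% of all genes tested). MMP7, a matrix protease gene, fell to 168 ± 8.4 FPKM in R-47, against 190 ± 3.6 FPKM in R-37 (log2 change -0.26, SE 0.05, adjusted p = 0.000806), and the transcription factor gene SOX9 changed by -0.35 (SE 0.08, adjusted p = 0.0050). One further target passed as higher without R-37 library 1 or without R-37 library 4, and 4 rather than 2 passed as lower without R-37 library 5. Of 7 tested targets known from the central vein zone, a role worked out mainly in mouse liver, 2 rose and 2 fell (57.1%). CYP2E1, a cytochrome P450 gene, changed by 1.34 (SE 0.31, adjusted p = 0.0052) at only 0.620 ± 0.19 FPKM in R-47 and 0.230 ± 0.087 FPKM in R-37, and RGN, which encodes the calcium-binding regucalcin, by 0.42 (SE 0.09, adjusted p = 0.0024). GLUL, the glutamine synthetase gene, fell to 13.6 ± 0.27 FPKM in R-47, against 15.7 ± 0.89 FPKM in R-37 (log2 change -0.29, SE 0.05, adjusted p = 0.000384). TBX3, a transcription factor gene, changed by -0.27 (SE 0.07, adjusted p = 0.013), a call lost with library size alone (adjusted p = 0.060) and with all 20 libraries in one fit (adjusted p = 0.12; range over all alternatives 0.0019 to 0.12).

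**Figure D2:**
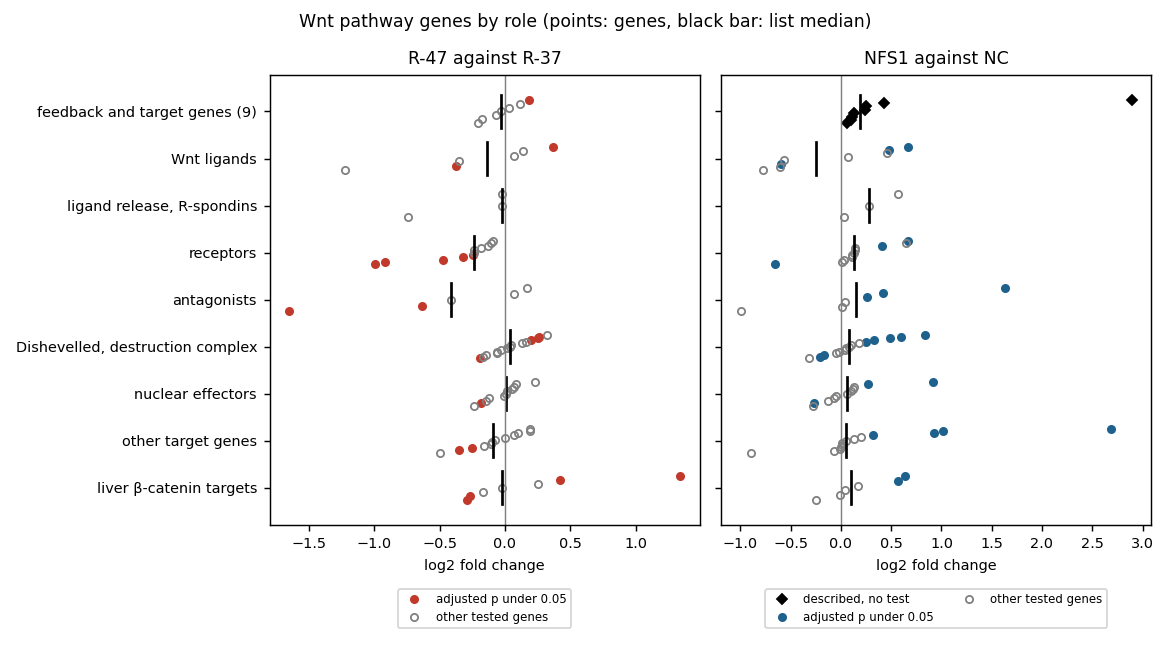
Log2 fold changes of the tested Wnt pathway genes by role (points), with the list median as a black bar. R-47 is set over R-37 on the left and NFS1 over NC on the right; filled circles passed an adjusted p of 0.05, and black diamonds are the 8 of the 9 genes described with no test. On the left, 5 of 11 receptors passed as lower and none as higher, while 13.2% of all genes tested passed as lower.

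The second comparison set the labelled NFS1 knockdown against NC, all at 47 °C. NKD1 was picked from this contrast, so the values of the 9 genes are a description. NKD1 averaged 0.548 ± 0.017 FPKM in NFS1 and 0.0728 ± 0.0086 FPKM in NC (SD, n = 5 each), a log2 difference of 2.89 (SE 0.11) or 7.43-fold. It ranked 18 of 15086 tested genes by fold change. Among called genes with an average log2 CPM of at least 0, CPM being the count scaled by library total and composition, it came 7th. The gene just below it there was HSPA6, a heat shock chaperone gene, at 2.82 (SE 0.65). On the log2(FPKM + 1) scale the NKD1 difference was 0.53, since a pseudocount of 1 lies above the gene's level in each library.

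The other feedback genes differed far less. TCF7 was higher by 0.43 (SE 0.07), with means of 2.34 ± 0.072 FPKM in NFS1 and 1.72 ± 0.14 FPKM in NC. RNF43 was higher by 0.25 (SE 0.07) and ZNRF3 by 0.24 (SE 0.07). DKK1 differed by 0.13 (SE 0.09), LGR5 by 0.11 (SE 0.12), LGR4 by 0.10 (SE 0.10) and AXIN2 by 0.06 (SE 0.05). The LGR4 value rests on NFS1 library 4 and was -0.02 without it. NKD1, TCF7, RNF43 and ZNRF3 are 4 of the 8 tested genes (50%) past adjusted 0.05, none of them lower, against 28.1% of all 15086 genes tested; since the contrast chose the set, nothing is read from that count. The median of the 8 was 0.19, against 0.02 for all genes tested.

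**Figure D3:**
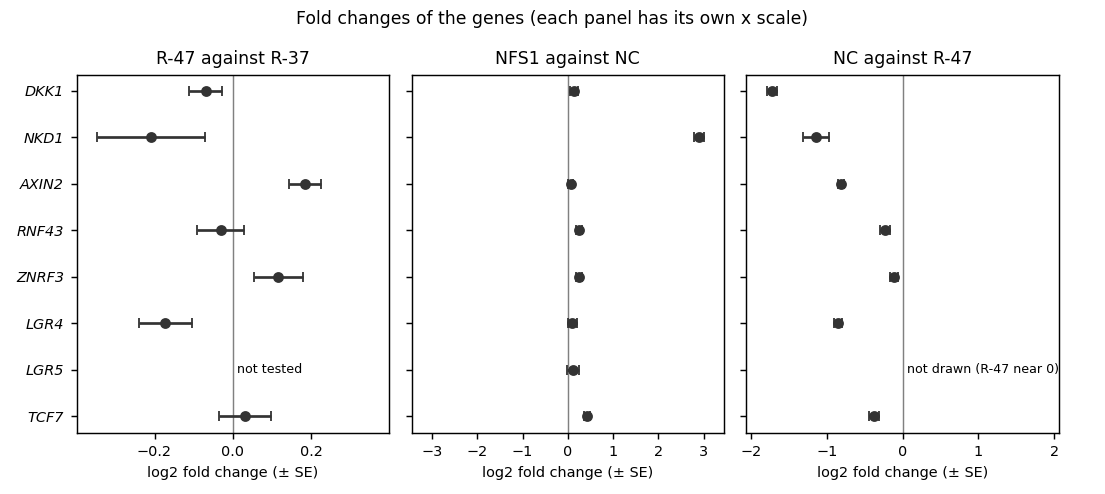
Log2 fold change (points) and SE (bars) of the genes for R-47 over R-37 (left), NFS1 over NC (middle) and NC over R-47 (right); each panel has its own scale, and LEF1 was not tested. NKD1 stands at 2.89 in NFS1 against NC while the other 7 genes lie between 0.06 and 0.43; LGR5 is not drawn in the last panel because R-47 is near 0 counts.

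Of the 112 listed pathway genes, 73 were tested in NFS1 against NC: 20 rose and 5 fell (34.2%, against 28.1% of all genes tested), with a median of 0.10. Of all genes tested, 15.7% passed as higher and 12.5% as lower. The lists were drawn up with earlier results of these data known, so their counts and p-values are no independent test. EPHB2, an ephrin receptor gene and Wnt target, rose to 0.735 ± 0.083 FPKM in NFS1, against 0.113 ± 0.036 FPKM in NC (log2 change 2.69, SE 0.18, adjusted p = 3.77e-07). BMP4, a growth factor gene, rose to 9.36 ± 0.48 FPKM in NFS1, against 4.57 ± 0.39 FPKM in NC (log2 change 1.02, SE 0.08, adjusted p = 1.06e-06). They are 2 of the 4 of 13 tested other targets that rose (30.8%), and none of the 13 passed as lower, with a median of 0.05. Of 6 tested liver targets, 2 rose (33.3%): the ornithine aminotransferase gene OAT by 0.64 (SE 0.06, adjusted p = 7.7e-06) and TBX3 by 0.56 (SE 0.15, adjusted p = 0.011). The TBX3 call was lost without NFS1 libraries 2 and 3 (adjusted p = 0.12; range over all alternatives 0.00082 to 0.12).

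Among 11 nuclear effectors, 2 rose and 1 fell (27.3%), near the 28.1% of all genes tested. TCF7L2 rose to 6.74 ± 0.91 FPKM in NFS1, against 3.53 ± 0.18 FPKM in NC (log2 change 0.92, SE 0.09, adjusted p = 1.12e-05). BCL9, a β-catenin coactivator gene, changed by 0.27 (SE 0.07, adjusted p = 0.0083), and its relative BCL9L by -0.27 (SE 0.07, adjusted p = 0.011), lost on log2(FPKM + 1) with no filter (adjusted p = 0.063; range over all alternatives 7.26e-06 to 0.063). CTNNB1 differed by 0.06 (SE 0.04, adjusted p = 0.33). Without NFS1 library 4, the number of nuclear effectors called higher was 4. Of 15 Dishevelled and destruction complex genes, 5 rose and 2 fell (46.7%), and 3 rather than 5 rose without NC library 3. BTRC, the substrate receptor that brings β-catenin to its ubiquitin ligase, changed by 0.83 (SE 0.09, adjusted p = 1.46e-05) and TNKS2, a tankyrase that marks axins for degradation, by 0.60 (SE 0.10, adjusted p = 0.000386). AXIN1, the paralogue of AXIN2, averaged 12.2 ± 1.4 FPKM in NFS1 and 8.61 ± 0.72 FPKM in NC (log2 change 0.49, SE 0.08, adjusted p = 0.000468). GSK3A fell by 0.21 on the log2 scale (SE 0.05, adjusted p = 0.0085), lost with length and GC offsets (adjusted p = 0.053; range over all alternatives 0.00030 to 0.053). DVL3 changed by -0.16 (SE 0.05, adjusted p = 0.022), a call lost without NC library 1 (adjusted p = 0.052) or NFS1 library 3 (adjusted p = 0.066; range over all alternatives 0.0016 to 0.12).

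Among 8 ligands, 2 rose and 1 fell (37.5%, against 28.1% of all genes tested). WNT10B changed by 0.67 (SE 0.14, adjusted p = 0.0022), WNT7B by 0.48 (SE 0.10, adjusted p = 0.0023) and WNT3 by -0.60 (SE 0.08, adjusted p = 6.64e-05). The median of the 8 was -0.24. Among 11 receptors, 2 rose and 1 fell (27.3%), with LRP6 at 0.41 (SE 0.08, adjusted p = 0.0016), ROR1, a receptor of Wnt5a-type signals, at 0.67 (SE 0.15, adjusted p = 0.0052) and FZD3 at -0.66 (SE 0.13, adjusted p = 0.0016). Of 6 antagonists, 3 rose and none passed as lower (50%). SOST, which encodes the LRP5 and LRP6 blocker sclerostin, changed by 1.63 (SE 0.30, adjusted p = 0.0012) at 0.532 ± 0.16 FPKM in NFS1 and 0.168 ± 0.063 FPKM in NC. TPBG, a surface inhibitor with the highest level of the list, changed by 0.26 (SE 0.06, adjusted p = 0.0068). One antagonist passed as lower without NC library 1 or without NFS1 library 3.

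TCF7L2, BTRC, TNKS2 and OAT lie on chromosome 10, on which the NFS1 libraries were higher as a whole than the NC libraries. Of 565 tested genes of that chromosome, 375 (66.4%) passed as higher, with a median of 0.48, against 13.9% of 14014 genes elsewhere, with a median of 0.01. All 4 tested listed genes there rose, with a median of 0.74. Of the 69 others, 16 rose and 5 fell, with a median of 0.07. DKK1 lies on the same chromosome, and its difference of 0.13 was below the chromosome's median. NKD1 lies on chromosome 16. In NC against R-47 chromosome 10 ran the other way. Of its 570 tested genes 58.2% passed as lower and 26.5% as higher, with a median of -0.46. Of 14027 genes elsewhere 39.3% passed as lower and 40.4% as higher, with a median of 0.02. Of 5 tested listed genes on chromosome 10, 4 were lower and 1 higher, with a median of -1.17. DKK1 differed there by -1.73. What part chromosome 10 plays in these values was not tested.

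NC and R-47 carry the same labels of line, genotype and treatment but come from different experiments, so experiment cannot be told apart from anything else that differs between them. NC shares its libraries with the contrast that chose NKD1, so the values of the 9 genes are again a description. NKD1 was lower in NC by a log2 difference of -1.15 (SE 0.17), DKK1 by -1.73 (SE 0.07), LGR4 by -0.86 (SE 0.05) and AXIN2 by -0.82 (SE 0.04). TCF7 differed by -0.38 (SE 0.07), RNF43 by -0.23 (SE 0.06) and ZNRF3 by -0.12 (SE 0.06). With library size alone the median of all genes was 0.19 in place of 0.01, RNF43 came to -0.05 and ZNRF3 to 0.07, so the sign of ZNRF3 turned. LGR5 ran the other way: 742 counts over the NC libraries, against 9 over the R-47 libraries, an 85.7-fold ratio once scaled by the summed library totals (exact 95% interval 44.9 to 188, counting error only). Without R-47 library 2, a choice made after seeing the data, it was 206-fold against 3 counts (exact 95% interval 70.1 to 999), so its size rests on that library. Of the 8 tested genes 1 was called higher and 6 lower (87.5%), against 79.7% of all genes tested, of which 40.1% were higher and 39.6% lower; nothing is read from that count.

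Set side by side, NKD1 was at its lowest in NC, and NFS1 libraries exceeded R-47 libraries as well, at 0.548 ± 0.017 FPKM in NFS1 and 0.143 ± 0.021 FPKM in R-47 (SD, n = 5 each). AXIN2, in contrast, averaged 15.3 ± 0.34 FPKM in NFS1 and 14.6 ± 0.71 FPKM in NC, both below its level in R-47 and in R-37.

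In NC against R-47, of 72 tested pathway genes 22 were higher and 40 lower in NC (86.1%), against 79.7% of all genes tested. Of 13 tested other targets, 3 were called higher and 10 lower, with a median of -0.83, against 0.01 for all genes tested. Of all genes tested, 40.1% were called higher and 39.6% lower. MMP7 fell to 7.67 ± 0.27 FPKM in NC, against 168 ± 8.4 FPKM in R-47 (log2 change -4.63, SE 0.06, adjusted p = 3.78e-24), and EPHB2 to 0.113 ± 0.036 FPKM in NC, against 2.17 ± 0.16 FPKM in R-47 (log2 change -4.45, SE 0.13, adjusted p = 5.41e-18). The cyclin gene CCND1 was higher, by 0.42 (SE 0.04, adjusted p = 1.25e-09). CTNNB1 rose to 140 ± 3.3 FPKM in NC, against 63.0 ± 1.9 FPKM in R-47 (log2 change 0.98, SE 0.04, adjusted p = 2.82e-16), while TCF7L2 fell to 3.53 ± 0.18 FPKM in NC, against 8.49 ± 0.37 FPKM in R-47 (log2 change -1.45, SE 0.06, adjusted p = 1.08e-15). AXIN1 fell to 8.61 ± 0.72 FPKM in NC, against 24.0 ± 0.61 FPKM in R-47 (log2 change -1.66, SE 0.05, adjusted p = 1.72e-17). The acyltransferase gene PORCN, needed for ligand release, changed by -2.93 (SE 0.10, adjusted p = 1.25e-16), and KREMEN2, a receptor gene for Dickkopf proteins, by 4.78 (SE 0.30, adjusted p = 3.15e-12).

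**Figure D4:**
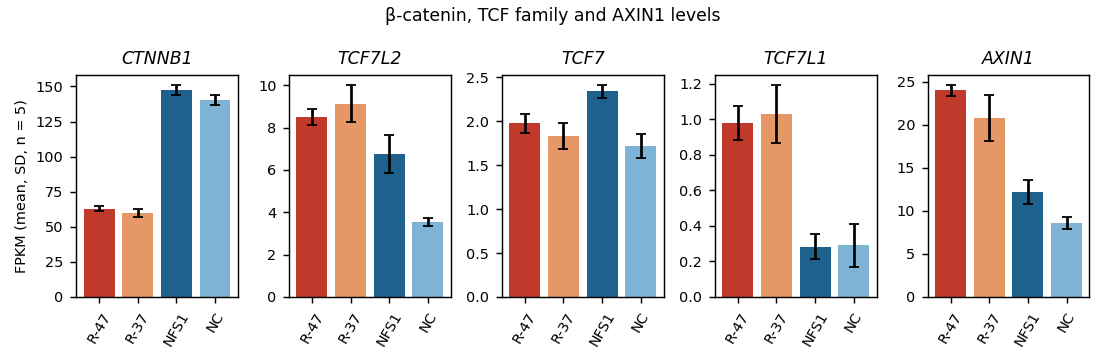
Mean FPKM (bars) and SD (n = 5 per group) of CTNNB1, TCF7L2, TCF7, TCF7L1 and AXIN1 in R-47, R-37, NFS1 and NC, each panel with its own scale from 0. TCF7L2 averages 6.74 FPKM in NFS1 and 3.53 FPKM in NC, and TCF7L1 lies near 0.3 FPKM in both.

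Among TCF and LEF genes the order of levels was TCF7L2, TCF7, TCF7L1 and LEF1 in each group. TCF7L2 averaged 8.49, 9.13, 6.74 and 3.53 FPKM in R-47, R-37, NFS1 and NC, and TCF7L1 averaged 0.978, 1.03, 0.283 and 0.291 FPKM in the same order. The genes whose profile over the 20 libraries lay nearest to NKD1, by root mean square difference of gene-centred log2 CPM among 12646 genes, were MANCR (0.56), COL6A3 (0.58), CFI (0.59), the carboxypeptidase M gene, whose symbol is also CPM (0.60), and DNAAF11 (0.61). COL6A3, a collagen gene, averaged 96.6 CPM in NFS1 and 32.2 CPM in NC, and CFI, the complement factor I gene, averaged 4.38 CPM in NFS1 and 1.41 CPM in NC. Of the 9 genes the nearest was TCF7 at 0.89, which ranked 436, and the farthest of those compared was DKK1 at 1.36, which ranked 11655. These are distances over libraries that share their groups, and they are given as a description.

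**Figure D5:**
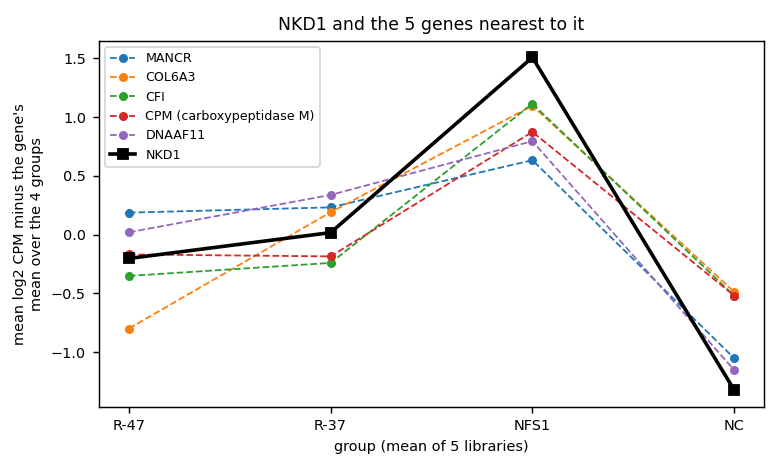
Group means of log2 CPM (5 libraries each), less each gene's mean over the 4 groups, for NKD1 (black squares) and the 5 genes nearest to it. The lines join unordered groups to guide the eye; all 6 genes are highest in NFS1, and COL6A3 alone is lowest in R-47.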

How the data were processed

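RNA-seq of polyA RNA was analysed in 20 libraries, grouped by their titles. Per the submitters' processing notes, the tools were fastp, HISAT2 and HTSeq, and the build was hg38; their versions, the annotation and strandedness are not given here by any label. The authors deposited whole-number counts, not normalised, and FPKM values for 26038 symbols; in the deposited FPKM each count is scaled by gene length and by library total. From the counts, each comparison was fitted on its own 2 groups with edgeR 4.0.16 (filterByExpr, minimum count 10, total 15; TMM; quasi-likelihood test; Benjamini-Hochberg at 0.05 over all genes tested) in R 4.3.3. CPM were scaled by TMM over all libraries. SE is the log2 fold change over the square root of F. Simulated counts, in which 200 genes had been changed, were used to check the fits. Python 3.11.15, pandas 2.3.3, scipy 1.17.1 and matplotlib 3.10.9 made tables, intervals and plots. Positions are from RefSeq on GRCh38.p14, which matched 24442 symbols.

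The 9 genes and the pathway lists were chosen with earlier results of these data known. Named genes were the 9, NFS1, VIM and CDH1, the 2 genes of smallest adjusted p called in each direction per list and comparison, the highest and lowest gene of each list, the 5 genes nearest NKD1 and overlapping genes; AXIN1, TCF7L1, KRT19 and ALB were added after their values were seen. The gene ranked just above NKD1 is not reported here. Alternatives were scaling by library size alone or by DESeq2 size factors, a minimum count of 50 or no filter, other tools (DESeq2 1.42.0, limma-voom from limma 3.58.1), a joint fit of all 20 libraries, a replicate block, leaving out each library, and limma on FPKM with pseudocounts of 1 or 0.1 (minimum mean FPKM of 1, or unfiltered); length and GC offsets were added after seeing the data. The exact interval of the LGR5 ratio covers counting error only, while 95% intervals of fold changes come from the SE of the fit and include the spread between libraries, and 1 to 3 counts per gene is the floor of what a library shows. Identical libraries were found in 0 pairs within groups.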

Additional observations from a re-analysis of the deposited data

Results flagged for a closer look

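LGR4 in NFS1 library 4 stood apart from its group, at 77.8 CPM against 53.0 to 56.8 CPM in the other 4 NFS1 libraries. The gap to the nearest library was 0.844 of the group's range, above the critical value for 5 samples; chance alone flags about 1 in 20 groups. Without this library LGR4 differed by -0.02 between NFS1 and NC, in place of 0.10.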

How the results depend on the processing

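AXIN2 kept its direction and its call in R-47 against R-37 under every alternative run, with log2 changes of 0.16 to 0.26 and adjusted p of 2.31e-06 to 0.024. The main counts there were 1714 genes higher and 1890 lower, so 47.6% of calls were higher; with library size alone 2977 were higher and 1013 lower (74.6% higher). On log2(FPKM + 1) 839 genes were lower, on log2(FPKM + 0.1) 841, and on log2(FPKM + 1) with no filter 2608 were higher and 827 lower. In NC against R-47 the share of higher calls was 50.3%, against 61.2% with library size alone, and 3741 genes were lower on log2(FPKM + 1) and 3734 on log2(FPKM + 0.1), against 5978. In NFS1 against NC 1147 genes were lower without NFS1 libraries 2 and 3, against 1881. Of the 9 genes in R-47 against R-37, 2 were higher (AXIN2 and ZNRF3) with library size alone, log2(FPKM + 1) or log2(FPKM + 0.1), and leaving out 1 library gave 0 to 1 lower (LGR4). Of the other pathway genes, 10 were higher and 22 lower with length and GC offsets, against 6 and 14, and 8 were lower on either filtered FPKM scale. For these changes the cause was not tested.

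Small values changed sign. RNF43 in R-47 against R-37 was 0.045 with library size alone, 0.038 on log2(FPKM + 1) with or without the filter, and 0.042 on log2(FPKM + 0.1). TCF7 there ranged from -0.0035 to 0.071 with 1 library left out, and was negative without R-37 library 3. DKK1 there was 0.0059 with library size alone and on each FPKM scale. VIM there was 0.037 with library size alone and on log2(FPKM + 0.1), 0.031 on log2(FPKM + 1) with or without the filter, and -0.072 to 0.012 with 1 library left out. MANCR there was 0.044 with library size alone, 0.028 on log2(FPKM + 1) with or without the filter, 0.035 on log2(FPKM + 0.1), and -0.099 to 0.034 with 1 library left out. The gene CPM there was 0.020 with library size alone, 0.0055 with limma-voom, 0.0066 on log2(FPKM + 1) with no filter, 0.056 with offsets, and -0.21 to 0.15 with 1 library left out. CFI in NC against R-47 was 0.040 with library size alone and 0.011 on log2(FPKM + 1) with no filter. None of the sign changes in R-47 against R-37 passed the test. LGR4 in NFS1 against NC, which has no test, was -0.02 without NFS1 library 4.

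Same-numbered libraries did not deviate together in every pair (correlations of -0.23 to 0.15), so the numbers were not taken as pairs. With the replicate number as a block, 1438 genes were higher and 1490 lower in R-47 against R-37, 1733 and 1335 in NFS1 against NC, and 6073 and 6031 in NC against R-47. Low counts limit LGR5 in the first experiment and LEF1 throughout.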
